A study of Mus musculus with 12 samples.

Results

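Transcripts of 10 receptor genes of myeloid cells were examined in epididymal white adipose tissue (eWAT), namely the Fc receptor genes *Fcgr1*, *Fcgr2b*, *Fcgr3*, *Fcgr4* and *Fcer1g* and the C-type lectin genes *Clec7a*, *Clec4n*, *Clec4d*, *Clec4e* and *Clec12a*. They were matched by symbol and make up 10 of the 22947 genes in the deposited table. The choice was made with earlier results of these data known. It does not cover whole families, and other Fc receptors and C-type lectins are given further on. Expression was measured by RNA sequencing in 12 libraries of male C57BL/6J mice aged 21 weeks, with 3 mice in each of 4 groups, after 16 weeks on the diets. The ND group ate a normal diet, the HFD group a high-fat diet, the CLE group the high-fat diet with an ethanol extract of chrysanthemum leaf at 1.5% of its weight, and the LU group the high-fat diet with the flavone luteolin at 0.003% of its weight. All mice were housed singly and fasted for 12 h before the tissue was taken, and the study sequenced samples it describes as representative of each group. RNA came from the undivided tissue with all its cell types, in which fewer cells of a type and less RNA per cell cannot be told apart.

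Fc gamma receptors bind the constant part of IgG antibodies and link antibody-coated particles to phagocytes. *Fcgr1*, *Fcgr3* and *Fcgr4* encode activating receptors, which pair with the common gamma chain encoded by *Fcer1g*. That chain carries an immunoreceptor tyrosine-based activation motif (ITAM), on which the kinase Syk docks. *Fcgr2b* encodes the inhibitory receptor of the family, whose own tail carries an inhibitory motif (ITIM) that recruits phosphatases. C-type lectins of myeloid cells recognise sugars and lipids of microbes and dying cells. Dectin-1 (*Clec7a*) binds beta-glucan and signals to Syk by a motif of its own, whereas Dectin-2 (*Clec4n*), MCL (*Clec4d*) and Mincle (*Clec4e*) signal through the gamma chain, and CLEC12A is an inhibitory receptor. In obese adipose tissue these receptors are known mainly from macrophages that gather around adipocytes.

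The genes lie in few places of the genome. In GENCODE M21 on GRCm38, *Fcgr2b* (chr1:170958617-170976547, minus strand), *Fcgr4* (chr1:171018920-171029761, plus strand), *Fcgr3* (chr1:171051174-171064935, minus strand) and *Fcer1g* (chr1:171229572-171234365, minus strand) are near neighbours. *Fcgr1* stands alone at chr3:96282909-96293969 on the minus strand. *Clec4n* (chr6:123229843-123247021), *Clec4d* (chr6:123262111-123275265) and *Clec4e* (chr6:123281789-123289870) form a cluster, and *Clec12a* (chr6:129342691-129365303) and *Clec7a* (chr6:129461591-129472779) lie farther along the same chromosome. GENCODE lists *Clec7a* as a polymorphic pseudogene and the other 9 as protein coding. All rows that carry these symbols in the table carry transcripts of the same genes. Exact stretches of read length shared with another gene were found for *Fcgr2b* and *Fcgr3* alone. Of the windows of 100 bases, the read length, in their most abundant known transcripts, 44 occur in both genes, which is 3.23% for *Fcgr2b* and 3.53% for *Fcgr3*, and the main transcripts of the other 8 genes share no window with another gene. Windows with mismatches and windows of the less abundant transcripts of these genes were not counted, so the sharing of reads may be larger.

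Promoter sequences from RefSeq (GRCm38.p6), which run from 250 bases before to 50 bases after a transcription start, were found for 9 of the 10 genes. For each gene the promoter nearest to the start of its most abundant known transcript was taken, and the starts lay 56 bases apart or less. They are shown for the genes on which the comparison of levels turns, the 2 lectin genes with the largest rise (*Clec7a*, *Clec12a*), the activating receptors *Fcgr1* and *Fcgr3*, and the inhibitory *Fcgr2b*. Capitals mark GAGGAAG, the purine-rich core bound by the myeloid factor PU.1, read on either strand.
*Clec7a* promoter, chr6:129472730-129473029, minus strand: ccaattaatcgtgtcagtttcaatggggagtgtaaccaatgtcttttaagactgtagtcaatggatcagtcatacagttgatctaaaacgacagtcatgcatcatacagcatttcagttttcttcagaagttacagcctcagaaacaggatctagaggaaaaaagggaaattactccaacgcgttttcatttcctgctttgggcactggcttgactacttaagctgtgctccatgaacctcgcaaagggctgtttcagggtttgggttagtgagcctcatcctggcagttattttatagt
*Clec12a* promoter, chr6:129349994-129350293, plus strand: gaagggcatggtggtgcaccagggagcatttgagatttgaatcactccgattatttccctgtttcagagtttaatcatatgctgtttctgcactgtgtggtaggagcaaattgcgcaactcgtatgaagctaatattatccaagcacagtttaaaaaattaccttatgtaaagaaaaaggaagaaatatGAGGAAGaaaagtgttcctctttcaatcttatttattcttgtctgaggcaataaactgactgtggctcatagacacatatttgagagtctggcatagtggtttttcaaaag
*Fcgr1* promoter, chr3:96293920-96294219, minus strand: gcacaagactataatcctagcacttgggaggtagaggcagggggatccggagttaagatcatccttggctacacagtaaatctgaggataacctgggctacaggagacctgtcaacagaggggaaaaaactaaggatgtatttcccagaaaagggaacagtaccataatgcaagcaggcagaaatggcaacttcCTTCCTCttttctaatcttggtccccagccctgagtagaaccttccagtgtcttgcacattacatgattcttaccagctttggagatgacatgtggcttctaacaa
*Fcgr3* promoter, chr1:171059354-171059653, minus strand: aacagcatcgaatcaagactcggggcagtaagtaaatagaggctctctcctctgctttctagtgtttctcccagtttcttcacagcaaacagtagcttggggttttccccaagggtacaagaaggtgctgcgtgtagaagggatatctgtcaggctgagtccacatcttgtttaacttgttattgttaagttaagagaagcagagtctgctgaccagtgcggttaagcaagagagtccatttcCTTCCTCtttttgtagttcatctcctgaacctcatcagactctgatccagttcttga
*Fcgr2b* promoter, chr1:170976022-170976321, minus strand: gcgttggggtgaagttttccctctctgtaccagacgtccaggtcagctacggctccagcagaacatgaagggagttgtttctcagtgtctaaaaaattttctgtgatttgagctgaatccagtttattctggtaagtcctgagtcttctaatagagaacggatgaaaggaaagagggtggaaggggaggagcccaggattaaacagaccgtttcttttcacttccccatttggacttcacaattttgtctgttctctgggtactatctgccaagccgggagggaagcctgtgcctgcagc
GAGGAAG occurred in 5 of the 9 promoters, those of *Fcgr1*, *Fcgr3*, *Fcgr4*, *Clec4d* and *Clec12a*, and in 13.6% of the 32851 promoters of this length in the same table. In *Fcgr1* it spanned bases -56 to -50 from the start, in *Fcgr3* bases -7 to -1, in *Fcgr4* bases -23 to -17 and in *Clec12a* bases -61 to -55. TTGCNNAA, the core of C/EBP sites, occurred in *Fcgr3*, *Clec4e* and *Clec12a* and in 10.8% of all promoters. TTCNNNGAA, the core bound by STAT factors, occurred in *Fcgr1* alone among the 9 and in 8.3% of all promoters. TATAAA occurred in *Clec7a* and *Clec4e* and in 13.6% of all promoters. All motifs were searched on both strands and no 2 matches overlapped. A match describes the letters of the window and does not show binding.

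*Fcgr2b* gives rise to receptors with different tails. The form known from B cells holds an extra stretch in the cytoplasmic tail, and the form known from macrophages lacks it. In GENCODE, ENSMUST00000027966 has a coding exon of 141 bases (47 codons) at chr1:170963325-170963465 on the minus strand that ENSMUST00000081103 lacks, and ENSMUST00000159688 holds 57 bases of it. The exon is shown because it is the difference between the 2 transcripts.
*Fcgr2b* exon in ENSMUST00000027966 and not in ENSMUST00000081103: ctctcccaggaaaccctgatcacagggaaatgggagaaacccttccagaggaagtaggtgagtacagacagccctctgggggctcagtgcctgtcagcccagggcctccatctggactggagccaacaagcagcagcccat
The transcript without this exon was the most abundant known transcript of the gene, at 11.6, 12.2 and 10.3 FPKM in ND mice, 24.6, 27.4 and 26.3 FPKM in HFD mice, 18.4, 23.8 and 15.6 FPKM in CLE mice and 23.8, 30.8 and 20.1 FPKM in LU mice. The transcript with the exon had 0.0447, 0.337 and 0.432 FPKM in ND mice and 0.719, 0.899 and 0.741 FPKM in HFD mice, and did not pass 2.04 FPKM in any library. Of these 2 transcripts, the one without the exon was therefore the higher in each of the 12 libraries. ENSMUST00000159688 did not pass 1.77 FPKM in any library. The transcript without the exon made up 43.7% of the mean FPKM of the gene, and whether the remaining transcripts hold the exon is not given here. FPKM, the unit of all levels here, counts sequenced fragments scaled by transcript length and library size. The split of a gene's reads among its transcripts is an estimate of the authors' software, and the deposited table gives no error for it.

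Some facts of the libraries bear on what follows. The table carries FPKM and no read counts, so depth is unknown and no counting interval can be given. ND mouse 4 was read from a column headed MD4, which is an inference from the header. The letter R stands in the titles of 4 libraries (ND 3 and ND 4, CLE 4, LU 2), with no meaning given in the labels, and in no HFD title, so that HFD could not be compared within these libraries. The column headers of the same 4 libraries, and of no other library, also share a number whose meaning is not given. In a limma fit that took the letter as a term, that term passed the threshold for none of the tested receptor genes (0 of 9, adjusted p = 1 for each). *Clec4n* had an unadjusted p of 0.032. With 4 such libraries an effect is not excluded, and some calls given below changed without them. Adipocyte markers dominated the libraries, with *Adipoq* between 1110 and 2290 FPKM. Of 10 markers of the epididymis, *Lcn5* and *Defb2* were at 0 in all libraries, and the sum of the list was at most 7.09 FPKM.

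**Figure D1:**
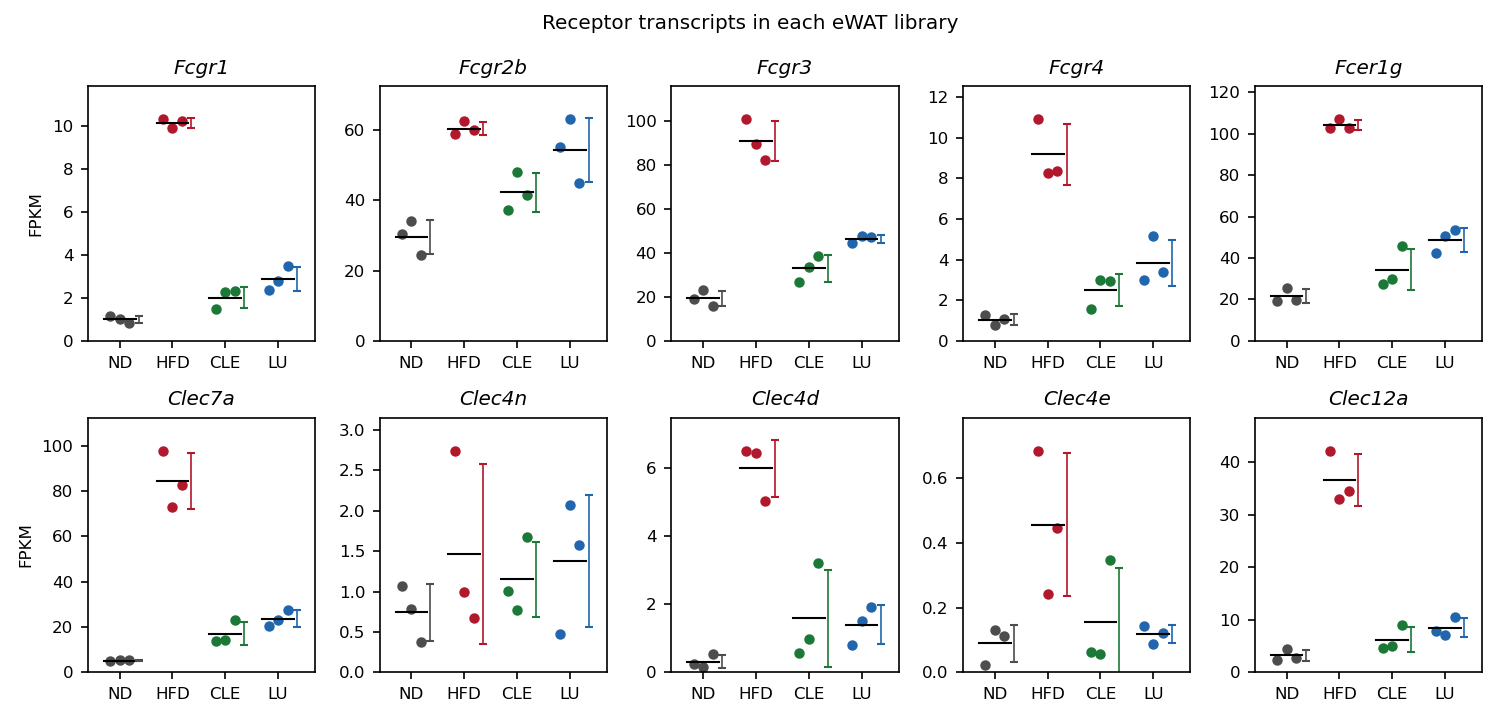
FPKM (vertical axis, linear, from 0, a scale for each gene) of the 10 receptor genes in each library of the ND, HFD, CLE and LU groups. Points are mice in the order of their numbers, black lines are group means and bars are SDs (n = 3, cut at 0 in the panel of *Clec4e*). The HFD mice stand above all others for *Fcgr1*, *Fcgr3*, *Fcgr4*, *Fcer1g*, *Clec7a*, *Clec4d* and *Clec12a*, but not for *Fcgr2b*, *Clec4n* and *Clec4e*.

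The first question was how the high-fat diet moved the receptors. Of the 10 genes, 9 had at least 1 FPKM in at least 3 libraries and were tested, and 8 of these rose in HFD mice against ND mice, while 0 fell. A gene is called here when, in limma on log2(FPKM + 1), its Benjamini-Hochberg adjusted p was under 0.05 and its groups differed by more than 1.5 times. Among all 12775 genes tested, 14.9% were called higher in the same comparison. The 9 tested genes had a median log2 fold change of 2.31, against -0.02 over all genes tested. *Clec4n* was not called and *Clec4e* was too low to test.

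Among the activating IgG receptors, *Fcgr3*, the low-affinity receptor of macrophages, NK cells and mast cells, was the most abundant by FPKM. Its ND mice had 19.2, 23.0 and 15.9 FPKM and its HFD mice 101, 89.7 and 82.6 FPKM. The lowest HFD mouse was far above the highest ND mouse, and the log2 fold change was 2.19 (standard error, SE, 0.15, n = 3 mice per group, limma adjusted p = 9.8e-07).

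*Fcgr1*, the high-affinity receptor for monomeric IgG, was close to the limit of testing under the ND and clearly expressed under the HFD. The ND mice had 1.17, 1.02 and 0.817 FPKM and the HFD mice 10.3, 9.89 and 10.2 FPKM. Its log2 fold change was 2.48 (SE 0.13, adjusted p = 5.7e-07). *Fcgr4*, a receptor for IgG2 subclasses on monocytes, macrophages and neutrophils, behaved much like it, with 1.29, 0.772 and 1.07 FPKM in ND mice and 10.9, 8.25 and 8.37 FPKM in HFD mice. The groups were again apart, with a log2 fold change of 2.31 (SE 0.20, adjusted p = 4.4e-06).

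*Fcer1g*, the signaling chain that the activating receptors and several lectins share, rose with them. The ND mice had 19.4, 25.4 and 19.7 FPKM and the HFD mice 103, 107 and 103 FPKM. This was a log2 fold change of 2.23 (SE 0.17, adjusted p = 1.9e-06), next to the 2.19 of *Fcgr3*.

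*Fcgr2b*, the inhibitory receptor, had the highest FPKM of the Fc gamma receptor genes in ND mice and the smallest log2 fold change of them, and its share of their sum is compared further on. Its ND mice had 30.5, 34.1 and 24.5 FPKM and its HFD mice 58.8, 62.6 and 60.0 FPKM. The groups did not overlap, and the log2 fold change was 1.01 (SE 0.15, adjusted p = 0.00016). Its rank in ND mice is one of sums over transcripts. There, the most abundant known transcript held 35.7 to 41.9% of the *Fcgr2b* sum and 75.2 to 87.5% of the *Fcgr3* sum. Taken alone, that transcript of *Fcgr2b* had 11.6, 12.2 and 10.3 FPKM in ND mice. At the shares given, that of *Fcgr3* lay higher in each ND mouse. The means over the 12 libraries were 20.4 FPKM for this transcript of *Fcgr2b* and 41.0 FPKM for that of *Fcgr3*. The first rank of *Fcgr2b* in ND mice thus holds for the sums and not for these transcripts.

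The lectins held both the largest and the smallest rises. *Clec7a* went from 4.87, 5.54 and 5.29 FPKM in ND mice to 97.8, 73.0 and 82.7 FPKM in HFD mice. Its log2 fold change of 3.77 (SE 0.18, adjusted p = 5e-07) was the 36th largest in size among the 12775 genes tested. *Clec12a*, whose product binds uric acid crystals and restrains myeloid activation, had 2.44, 4.44 and 2.79 FPKM in ND mice and 42.2, 33.1 and 34.6 FPKM in HFD mice. For this gene the log2 fold change was 3.18 (SE 0.23, adjusted p = 1.4e-06), and no mouse of one group came near the other.

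In the *Clec4* cluster, only *Clec4d* was called. Its product MCL partners with Mincle, and its transcript went from 0.242, 0.162 and 0.532 FPKM to 6.51, 6.44 and 5.02 FPKM, a log2 fold change of 2.42 (SE 0.30, adjusted p = 6e-05). *Clec4n* had 1.07, 0.778 and 0.374 FPKM in ND mice and 2.74, 0.989 and 0.668 FPKM in HFD mice. These groups overlapped, and its log2 fold change of 0.43 (SE 0.32) had an adjusted p of 0.29. *Clec4e*, the Mincle gene, had 0.0244, 0.132 and 0.114 FPKM in ND mice and 0.685, 0.241 and 0.445 FPKM in HFD mice. It never reached 1 FPKM in any of the 12 libraries, so no test was made.

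**Figure D2:**
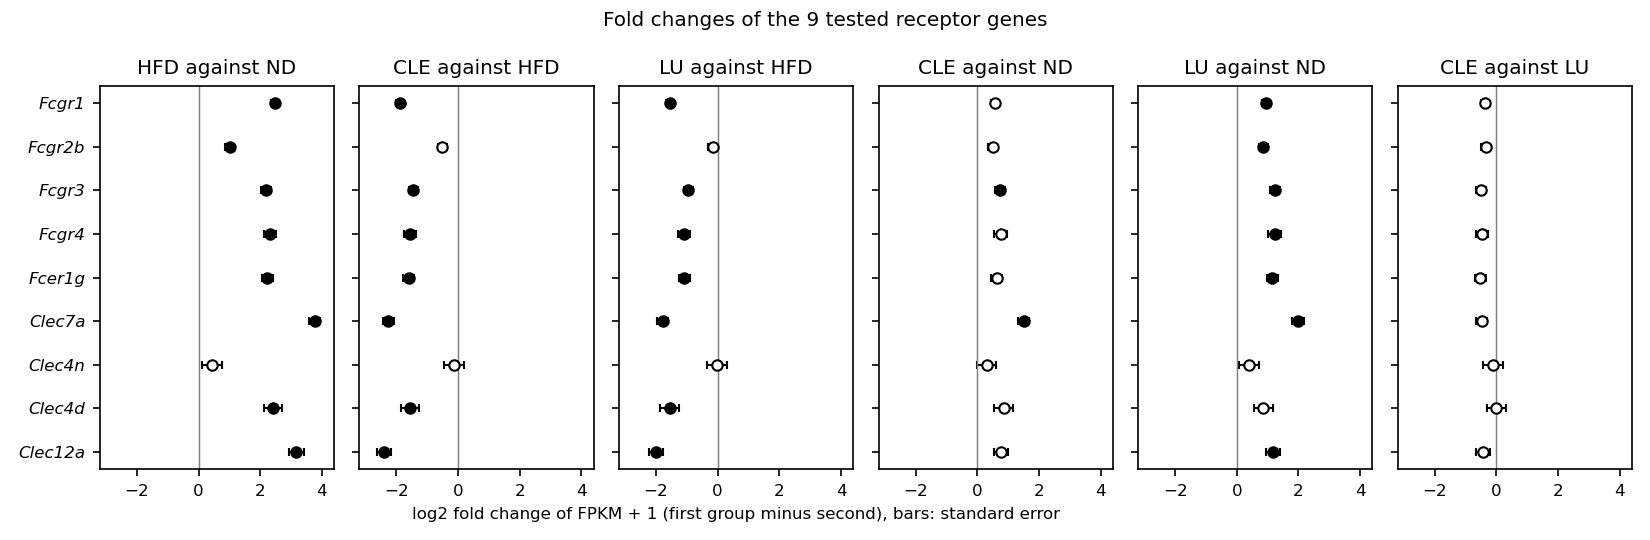
Log2 fold change of FPKM + 1 (horizontal axis) of the 9 tested receptor genes (rows) in the 6 comparisons (panels), first group minus second group. Points are limma estimates, bars are standard errors, and filled points were called. *Clec7a* and *Clec12a* lie farthest from 0 with the HFD, *Fcgr2b* and *Clec4n* nearest, and no point is filled for CLE against LU.

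The next question was whether the leaf extract moved the receptors against the HFD alone. Of the 9 tested genes, 7 fell in CLE mice and 0 rose, whereas 10.1% of all genes tested were called lower. Their median log2 fold change was -1.56, against 0.01 over all genes tested. The 7 were *Fcgr1*, *Fcgr3*, *Fcgr4*, *Fcer1g*, *Clec7a*, *Clec4d* and *Clec12a*. The HFD mice are the same as in the comparison with ND, so the 2 sets of values are not independent.

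Of the activating receptors, *Fcgr3* stood at 26.8, 33.6 and 38.8 FPKM in the CLE mice, with all 3 below the lowest HFD mouse (log2 fold change -1.45, SE 0.15, adjusted p = 4.9e-05). *Fcgr1* had 1.46, 2.27 and 2.31 FPKM, a log2 fold change of -1.90 (SE 0.13, adjusted p = 1.7e-05). *Fcgr4* had 1.57, 2.98 and 2.96 FPKM, with a log2 fold change of -1.56 (SE 0.20, adjusted p = 0.00017). In all 3 genes the CLE values lay nearer to the ND mice than to the HFD mice. *Fcer1g* had 27.4, 30.0 and 45.7 FPKM and a log2 fold change of -1.61 (SE 0.17, adjusted p = 5.9e-05), with CLE mouse 11 above the other 2.

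*Fcgr2b* stood at 37.2, 48.1 and 41.5 FPKM in CLE mice. All 3 lay below the HFD mice, and the adjusted p was 0.018, but the log2 fold change of -0.51 (SE 0.15) was under the fold threshold, so the gene was not called. Without the libraries with the letter R, or without CLE mouse 4 alone, its log2 fold change was -0.61 and the gene was called.

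*Clec7a* fell to 13.9, 14.4 and 23.2 FPKM, a log2 fold change of -2.26 (SE 0.18, adjusted p = 2e-05). *Clec12a* fell to 4.71, 5.04 and 9.03 FPKM, and its log2 fold change of -2.42 (SE 0.23, adjusted p = 3.3e-05) was the largest fall of the receptor genes. In both genes CLE mouse 11 was the highest of its group and still far below each HFD mouse. *Clec4d* had 0.581, 0.967 and 3.21 FPKM, so that mouse 11 lay well above the other 2, and the log2 fold change was -1.56 (SE 0.30, adjusted p = 0.0023). With any 1 library left out it stayed between -1.98 and -1.27 and was called each time. *Clec4n* had 1.01, 0.769 and 1.67 FPKM, which overlapped the HFD mice (log2 fold change -0.13, SE 0.32, adjusted p = 0.79). Its sign was not stable, with a log2 fold change of 0.22 without HFD mouse 12 and 0.06 with the letter R as a covariate. *Clec4e* had 0.0644, 0.0573 and 0.348 FPKM, again below the limit of testing.

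Luteolin was compared with the HFD in the same way. Of the 9 tested genes, 7 fell in LU mice and 0 rose, and 7.64% of all genes tested were called lower. The median log2 fold change of the 9 was -1.08, against 0.03 over all genes. The genes called were the same 7 as with CLE, and both comparisons use the same HFD mice.

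*Fcgr3* stood at 44.4, 48.0 and 47.2 FPKM in LU mice, with a log2 fold change of -0.95 (SE 0.15, adjusted p = 0.001). *Fcgr1* had 2.35, 2.79 and 3.46 FPKM (log2 fold change -1.54, SE 0.13, adjusted p = 1e-04). *Fcgr4* had 3.01, 5.14 and 3.39 FPKM (log2 fold change -1.08, SE 0.20, adjusted p = 0.0027). These values lay between those of the ND and HFD mice without overlap with either. The same held for *Fcer1g*, with 42.3, 50.8 and 53.4 FPKM and a log2 fold change of -1.08 (SE 0.17, adjusted p = 0.0011).

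*Fcgr2b* differed from them. It stood at 55.2, 63.1 and 45.0 FPKM, so the highest LU mouse was above each HFD mouse, and the log2 fold change was -0.16 (SE 0.15, adjusted p = 0.44). The 95% interval of this change ran from -0.48 to 0.16. The gene was not shown to differ from HFD mice.

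*Clec7a* had 20.5, 23.2 and 27.6 FPKM in LU mice (log2 fold change -1.79, SE 0.18, adjusted p = 0.00015). *Clec12a* had 7.89, 7.16 and 10.5 FPKM (log2 fold change -1.99, SE 0.23, adjusted p = 0.00022). *Clec4d* had 0.791, 1.51 and 1.92 FPKM (log2 fold change -1.56, SE 0.30, adjusted p = 0.0035). No LU mouse reached the lowest HFD mouse for these 3 lectins. *Clec4n* had 0.476, 2.07 and 1.57 FPKM and overlapped the HFD mice (log2 fold change -0.03, SE 0.32, adjusted p = 0.95), and the value was 0.32 without HFD mouse 12 and 0.28 without LU mouse 2. *Clec4e* had 0.143, 0.0886 and 0.123 FPKM.

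The supplemented mice were then compared with ND mice, which asks how far the receptors still differed from the normal diet. In LU mice, 7 of the 9 tested genes were called higher and 0 lower, with 4.97% of all genes called higher. These were all but *Clec4n* and *Clec4d*. *Clec7a* had the largest difference, a log2 fold change of 1.98 (SE 0.18, adjusted p = 0.0011), followed by *Fcgr3* at 1.24 (SE 0.15, adjusted p = 0.0012) and *Fcgr4* at 1.23 (SE 0.20, adjusted p = 0.0034). *Fcgr2b* was higher by 0.85 on the log2 scale (SE 0.15, adjusted p = 0.0043). Without the libraries with the letter R, 4 of the 7 were called, and *Fcgr2b*, *Fcgr4* and *Clec12a* were not (adjusted p = 0.064, 0.07 and 0.054 in limma).

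In CLE mice, 2 of the 9 were called higher than in ND mice, *Clec7a* and *Fcgr3*, and 0 lower, beside 2.06% of all genes called higher. At an unadjusted p under 0.05 in limma there were 8 of the 9, and 2980 of the 12775 genes tested. The CLE mice lay above the ND mice without overlap for 8 of the 9, where 13.2% of all genes tested did. *Clec7a* had a log2 fold change of 1.51 (SE 0.18, adjusted p = 0.0067) and *Fcgr3* one of 0.74 (SE 0.15, adjusted p = 0.021). *Fcgr1* missed the fold threshold with a log2 fold change of 0.58 (SE 0.13, adjusted p = 0.033), and *Fcgr4*, *Fcer1g*, *Fcgr2b* and *Clec12a* had adjusted p values between 0.052 and 0.075 in limma. The count of called genes depended on single libraries. It was 6 without CLE mouse 2, and 1 without ND mouse 2, ND mouse 4, CLE mouse 4 or CLE mouse 11, each of which ended the call of *Fcgr3*. It was 0 in a fit of the CLE and ND mice alone, in which limma called 0 of 12775 genes (2288 at an unadjusted p under 0.05), and 1 without the libraries with the letter R.

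CLE and LU were finally set against each other. None of the 9 genes was called in limma (0 of 9), and 1 of the 12775 genes tested was, which is 0.00783%. At an unadjusted p under 0.05 there were 6 of the 9 receptor genes, all lower in CLE mice, and 672 of all genes tested. *Fcgr3* had the lowest p of them, with a log2 fold change of -0.50 (SE 0.15, adjusted p = 0.89) and a 95% interval from -0.82 to -0.17. For *Clec7a* the interval ran from -0.87 to -0.08, for *Fcgr2b* from -0.67 to -0.03 and for *Clec4d* from -0.67 to 0.66. The libraries of CLE lay below those of LU without overlap for *Fcgr1*, *Fcgr3* and *Fcgr4*, 3 of the 9, where 6.34% of all genes tested did. In 8 of the 10 genes the group means fell in the order HFD, LU, CLE and ND, and in *Clec4d* and *Clec4e* CLE came before LU. By the adjusted test, CLE and LU were not separated for any of the 9 tested genes, HFD and LU not for *Fcgr2b*, and no pair of groups for *Clec4n*. CLE and ND, the last step of the order, were called apart for *Clec7a* and *Fcgr3* alone.

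**Figure D3:**
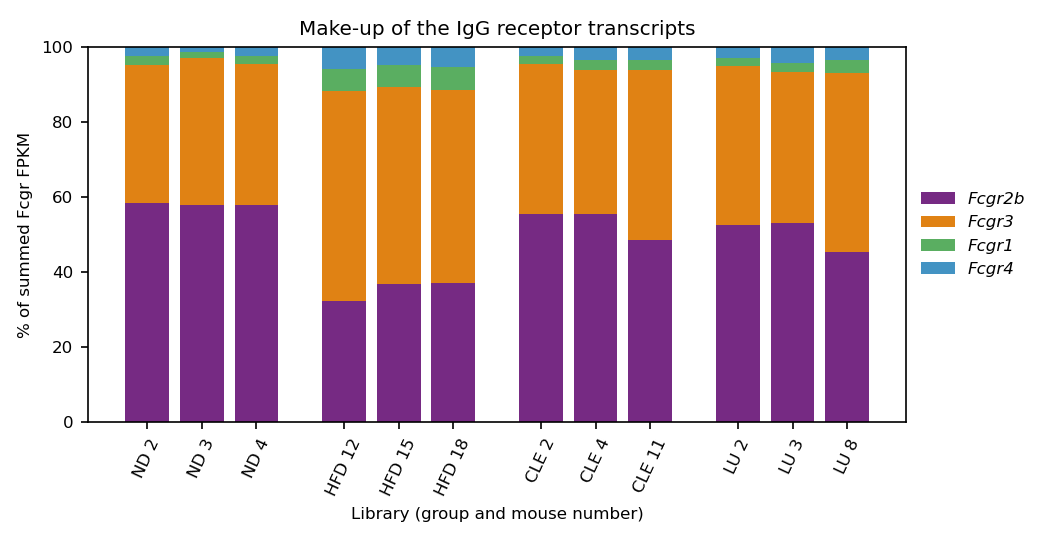
Share (vertical axis, % of the summed FPKM) of *Fcgr2b*, *Fcgr3*, *Fcgr1* and *Fcgr4* in each library, with group and mouse number on the horizontal axis and no error bars, as each bar is 1 library. The *Fcgr2b* share lies between 58 and 58.5% in ND mice and between 32.4 and 37.2% in HFD mice, with CLE and LU mice between.

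The uneven rise changed the make-up of the IgG receptor transcripts. The summed FPKM of *Fcgr1*, *Fcgr2b*, *Fcgr3* and *Fcgr4* was 51.1 ± 8.38 (SD, n = 3) in ND, 171 ± 10.1 (SD, n = 3) in HFD, 79.8 ± 11.1 (SD, n = 3) in CLE and 108 ± 10.2 (SD, n = 3) in LU mice. The inhibitory *Fcgr2b* took 58.5%, 58.0% and 58.0% of it in the ND mice. In the HFD mice it took 32.4%, 36.7% and 37.2%, which is 22.7 points less on average and without overlap. *Fcgr3* took the largest part of the HFD sum, with 53.3% ± 2.38 (SD, n = 3), against 37.8% ± 1.11 (SD, n = 3) in ND mice. All these shares rest on sums over the transcripts of each gene, as the rank of *Fcgr2b* in ND mice does.

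The CLE mice had *Fcgr2b* shares of 55.5%, 55.4% and 48.5%, and the LU mice of 52.6%, 53.0% and 45.4%. Their means of 53.1% ± 3.99 (SD, n = 3) and 50.3% ± 4.26 (SD, n = 3) were 17.7 and 14.9 points above HFD and 5.0 and 7.8 points below ND. No library of either group overlapped with HFD or ND. In an exact two-sided permutation test each of these 5 comparisons gave p = 0.1, the smallest that 3 mice against 3 allow (adjusted over 6 comparisons 0.12), so none can pass the threshold. CLE and LU overlapped, at a difference of 2.8 points (exact p = 0.5).

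The downstream parts of the pathway were read from lists of genes. Of 20 genes of ITAM signaling from Syk to CARD9, all tested, 16 rose with the HFD and 0 fell, with a median log2 fold change of 1.70. Among those that were not called were *Traf6*, *Bcl10* and *Src*. The largest rise was that of the adaptor *Lat2*, from 2.08 ± 0.33 FPKM (SD, n = 3) in ND to 43.8 ± 2.93 FPKM (SD, n = 3) in HFD mice, a log2 fold change of 3.87 (SE 0.35, adjusted p = 5.6e-06). The adaptor *Blnk* and the exchange factor *Vav1* had log2 fold changes of 2.90 and 2.55. *Syk* itself went from 9.86 ± 1.40 to 49.6 ± 5.35 FPKM (SD, n = 3 each) and *Card9* from 1.48 ± 0.13 to 6.38 ± 0.35 FPKM (SD, n = 3 each), 2 genes named here after their values were seen because the list bears their names. In CLE mice 15 of the 20 fell against HFD, in LU mice 13 fell, and 0 rose in either. Against ND mice, 14 of the 20 were called higher in LU mice (5 without the libraries with the letter R) and 2 in CLE mice (8 without CLE mouse 2, 1 without CLE mouse 11 or ND mouse 2).

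The phosphatases and adaptors that ITIM receptors use moved the same way. Of 10 such genes, 7 rose with the HFD and 0 fell, with a median log2 fold change of 1.14. *Ptpn6*, which encodes the phosphatase SHP-1, went from 4.64 ± 0.83 to 41.3 ± 8.71 FPKM (SD, n = 3 each) at a log2 fold change of 2.90 (SE 0.23, adjusted p = 2.3e-06). *Inpp5d*, which encodes SHIP1, the phosphatase that the *Fcgr2b* product recruits, went from 8.90 ± 0.91 to 51.0 ± 13.8 FPKM (SD, n = 3 each) at 2.37 (SE 0.22, adjusted p = 6.1e-06). The adaptors *Dok2* and *Dok3* had log2 fold changes of 2.24 and 1.58. *Pag1*, *Ptpn11* and *Inpp5b* were not called. Against HFD, 6 of the 10 fell in CLE mice and 6 in LU mice.

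Other receptors coupled to ITAM or ITIM motifs in myeloid cells followed the pattern of the activating receptors. Of 21 listed, 13 were tested, 12 rose with the HFD and 0 fell, and *Cd33* was not called. *Trem2*, a lipid receptor of macrophages, had the largest rise, from 1.52 ± 0.35 to 180 ± 25.6 FPKM (SD, n = 3 each), a log2 fold change of 6.17 (SE 0.54, adjusted p = 4.7e-06). Its signaling partner *Tyrobp*, which encodes DAP12, rose by 3.21 on the log2 scale (SE 0.18, adjusted p = 5.9e-07), and *Cd300lb* and *Lair1* by 3.58 and 3.40. In CLE and in LU mice 11 of the 13 fell against HFD. Against ND, 10 were called higher in LU mice, and 3 without the libraries with the letter R. In CLE mice 9 were called higher than in ND mice, but 1 to 5 without ND mouse 2, 3 or 4, CLE mouse 4 or 11, HFD mouse 15 or 18 or LU mouse 2, with 1 without ND mouse 2, and 0 without the libraries with the letter R.

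Relatives of the receptors by sequence family were less uniform. Of 25 other C-type lectins, 20 were tested, 10 rose with the HFD and 3 fell, beside the 10.8% of all genes called lower. *Mrc2*, a collagen receptor also made by fibroblasts, rose most, with a log2 fold change of 3.15 (SE 0.29, adjusted p = 6e-06), and *Clec4a2*, *Clec4b1* and *Clec4a3*, receptors of myeloid cells, rose by 2.85, 2.58 and 1.90. The 3 that fell were *Clec2d*, the ligand of an NK cell receptor (log2 fold change -1.25), and *Thbd* and *Clec14a*, genes of endothelial cells (-0.85 and -0.67). In CLE mice 9 of the 20 fell and 2 rose against HFD, and in LU mice 6 fell and 2 rose, where 6.33% and 4.81% of all genes were called higher. The 2 that rose were *Clec2d* and *Clec14a* with either supplement. With 1 library left out, 1 to 3 rose in CLE and 1 to 4 in LU mice, with 1 in CLE mice without CLE mouse 4 or HFD mouse 12, 1 in LU mice without HFD mouse 12, HFD mouse 15, LU mouse 2 or LU mouse 3, and 4 without LU mouse 8.

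Of 13 other Fc receptor genes, 4 were tested. *Fcrls* rose (log2 fold change 0.82, SE 0.28, adjusted p = 0.027) and *Fcamr*, which encodes a receptor for IgM and IgA, fell (-0.83, SE 0.26, adjusted p = 0.018). The call of *Fcrls* was lost without HFD mouse 12, HFD mouse 15, ND mouse 2 or ND mouse 4, and that of *Fcamr* without HFD mouse 12 or ND mouse 2. *Fcgrt*, the neonatal receptor that recycles IgG, was the most abundant of them with 152 ± 10.2 FPKM (SD, n = 3) in ND and 111 ± 4.03 FPKM (SD, n = 3) in HFD mice, a difference under the fold threshold (log2 fold change -0.46, SE 0.10, adjusted p = 0.0021). *Trim21*, the cytosolic antibody receptor, had a log2 fold change of 0.01. In CLE and LU mice none of the 4 was called against HFD by limma (0 of 4), at an unadjusted p under 0.05 there were 2 and 1 of them, and *Fcgrt* had an adjusted p of 0.022 and 0.015.

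**Figure D4:**
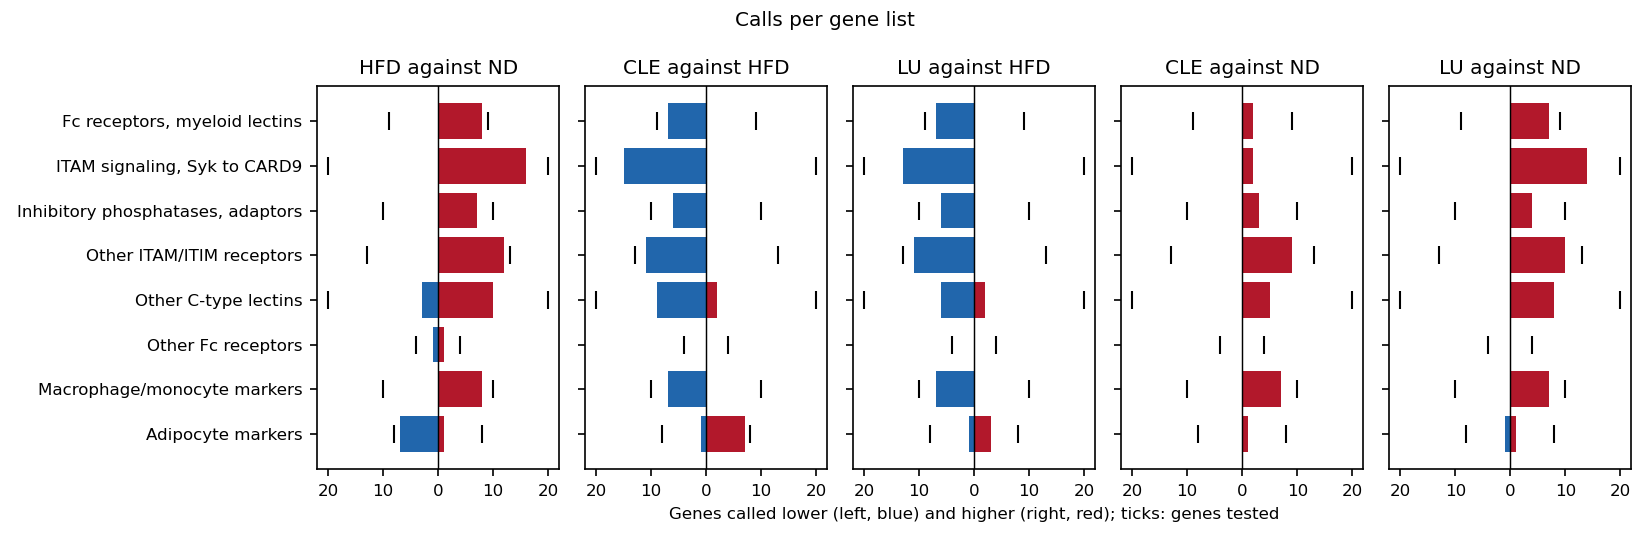
Number of genes called lower (blue, to the left) and higher (red, to the right) in 8 gene lists (rows) and 5 comparisons (panels), with ticks at the number of genes tested on either side. The lists of the 10 receptor genes, ITAM signaling, phosphatases, other ITAM or ITIM receptors and macrophage markers point to the right for HFD against ND. They point to the left for CLE and LU against HFD, and the adipocyte markers point the other way except *Lep*. Other C-type lectins have bars on both sides in these 3 panels. Other Fc receptors have 1 call on each side for HFD against ND and 0 for CLE and LU against HFD.

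Markers of macrophages and monocytes moved with the receptors. Of 10 such markers, 8 rose with the HFD and 0 fell, at a median log2 fold change of 2.47, and the sum of the list ranged from 362 to 541 FPKM in ND, 2480 to 2830 in HFD, 646 to 938 in CLE and 1000 to 1140 in LU mice. No marker of the list was at 0. *Cd68* and *Adgre1* had log2 fold changes of 4.08 and 3.92, and *Mertk* and *Cd163* had 0.15 and 0.24 and were not called. In CLE and in LU mice 7 of the 10 fell against HFD. The part of this movement in the values of the receptor genes was not tested.

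Markers of other cell types that carry these receptors were lower in sum than those of macrophages. Of 10 neutrophil markers, *Ly6g* was at 0 in every library and 4 passed the filter, of which *S100a8* and *Csf3r* rose and *Mmp9* and *S100a9* fell with the HFD (1 of these without ND mouse 2, ND mouse 3 or HFD mouse 12), and the sum of the list was 9.92 to 19.3 FPKM in ND, 74.8 to 124 in HFD, 16.2 to 29.7 in CLE and 25.8 to 56.5 in LU mice. Most of the HFD sum was *S100a8*, at 10.2 ± 4.78 FPKM in ND and 101 ± 27 FPKM in HFD mice (SD, n = 3 each). Of 7 B cell markers, 2 passed the filter, of which *Cd22* rose with the HFD (log2 fold change 1.44, SE 0.30, adjusted p = 0.002) and fell against HFD in CLE (-1.50, adjusted p = 0.0027) and LU mice (-0.88, adjusted p = 0.047, a call lost without ND mouse 4, any HFD mouse, CLE mouse 2, or LU mouse 2 or 3) and *Cd79b* was not called, and the sum was 4.02 to 10.7 FPKM in ND, 5.95 to 8.08 in HFD, 1.72 to 4.54 in CLE and 5.61 to 6.57 in LU mice. Of 9 markers of mast cells and basophils, 5 were tested, *Mcpt4*, *Cpa3*, *Cma1* and *Tpsb2* rose (2 of them without the libraries with the letter R) and *Kit* fell with the HFD, and the sum was at most 22 FPKM. Of 6 NK cell markers 0 of the 3 tested were called by limma in HFD against ND, also at an unadjusted p under 0.05, and the sum was at most 10.7 FPKM. Of 8 dendritic cell markers, 6 were tested and 2 rose, *Itgax* and *Clec9a* (1 without ND mouse 2, HFD mouse 15 or HFD mouse 18, 3 without HFD mouse 12 and 4 without ND mouse 3), with a sum of 27.5 to 30.7 FPKM in ND and 93.1 to 123 FPKM in HFD mice. *Itgax* made up most of the HFD sum, at 2.11 ± 0.425 FPKM in ND and 83.8 ± 16.6 FPKM in HFD mice (SD, n = 3 each). *Zbtb46* was lower in HFD mice, at 11.2 ± 1.85 against 17.5 ± 4.2 FPKM (SD, n = 3 each). Its log2 fold change of -0.58 (limma adjusted p = 0.024) was under the fold threshold. Adipocyte markers went the other way, as 7 of 8 fell with the HFD and *Lep* rose, and their sum was 28800 to 30200 FPKM in ND, 16600 to 18700 in HFD, 25100 to 27400 in CLE and 23500 to 28900 in LU mice. Of 7 liver markers, *Alb* and *Serpina1a* fell with the HFD, and the sum was at most 35.8 FPKM. The part of these cell types in the receptor values was not tested.

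**Figure D5:**
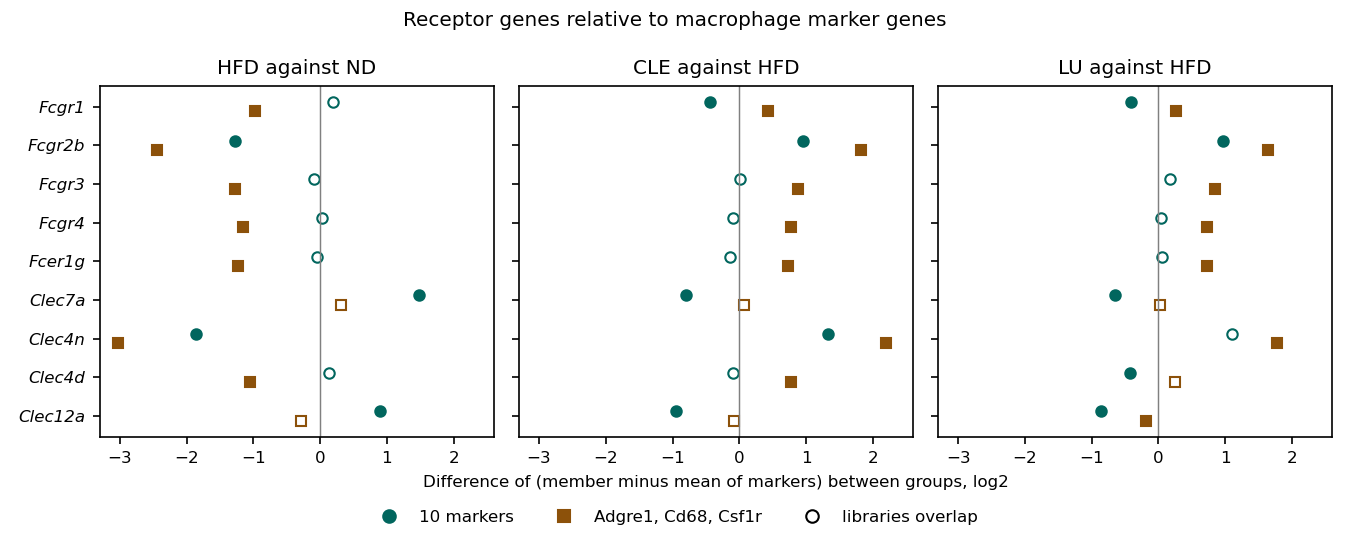
Difference between groups (horizontal axis, log2) in the level of each of the 9 tested receptor genes minus the mean of macrophage markers, with all 10 markers (circles) or *Adgre1*, *Cd68* and *Csf1r* alone (squares), and open symbols where the libraries of the groups overlap. *Fcgr2b* and *Clec4n* lie to the left of 0 for HFD against ND with either marker set, and the side of the other genes turns with the set for *Fcgr1*, *Fcgr4*, *Clec4d* and *Clec12a*.

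The receptors were also read relative to these macrophage markers, as the log2(FPKM + 1) of a gene minus the mean of the 10 markers in the same library. On this scale *Fcgr2b* was lower in HFD than in ND mice, with means of -0.64 and 0.64, a difference of -1.27, and *Clec4n* was lower by 1.86. *Clec7a* was higher by 1.48 and *Clec12a* by 0.89, and these 4 did not overlap between groups. *Fcgr1*, *Fcgr3*, *Fcgr4*, *Fcer1g* and *Clec4d* overlapped, at differences between -0.10 and 0.19. Of the 9 genes 2 were thus above and 2 below without overlap, where 1.05% of all genes tested were above and 97.2% below, as the markers rose and most genes did not.

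Against HFD, *Fcgr2b* was higher on this scale by 0.95 in CLE and 0.97 in LU mice, and *Clec7a* was lower by 0.80 and 0.66. In CLE mice 2 of the 9 genes were above and 3 below without overlap (95.6% and 0.994% of all genes), and in LU mice 1 was above and 4 below (94.7% and 1.16%). Against ND, 1 was above and 2 below in CLE mice (0.243% and 83.8% of all genes) and 1 above and 1 below in LU mice (0.446% and 93.2%). These counts depend on the markers. With *Adgre1*, *Cd68* and *Csf1r* alone, which rose more than the list as a whole, 0 genes were above and 7 below for HFD against ND (0.266% and 99.3% of all genes), among them *Fcgr2b* by -2.45, while *Clec7a* and *Clec12a* overlapped at 0.31 and -0.28. Against HFD, 7 were above and 0 below in CLE mice (99% and 0.117% of all genes) and 6 above and 1 below in LU mice (98.7% and 0.196%). *Clec7a* then overlapped in both, at 0.07 and 0.02, and *Fcgr1*, lower by 0.44 and 0.41 with 10 markers, was higher by 0.44 and 0.27. *Fcgr2b* stayed above, by 1.82 and 1.64, as most genes did. No test was made on this scale.

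Within the receptor genes, the levels over the 12 libraries ran closely together. For each of 7 of the 9 tested genes, the most similar other member had a Pearson's r of at least 0.947 on the log2 scale, with the highest value, 0.986, between *Fcgr3* and *Fcer1g*. *Fcgr2b* was most like *Fcgr3* (r = 0.907) and *Clec4n* like *Fcgr4* (r = 0.486). Among all other genes tested, the 5 most like the mean of the 9 were *Bcl2a1b* (r = 0.995), *Cd300a* (0.992), *Plxnc1* (0.989), *Arhgap9* (0.989) and *Ly86* (0.989). These are descriptions over 12 libraries of 4 groups, in which the HFD mice stand apart. Over the 9 libraries without HFD, r was 0.994, 0.991, 0.977, 0.99 and 0.974 for these 5 genes. Over the same 9 libraries the members and their most similar member ranged, among the 7 genes above, from 0.804 for *Clec4d* and *Clec12a* to 0.969 for *Clec12a* and *Fcer1g*, with 0.887 for *Fcgr1* and 0.906 for *Fcgr4*.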

How the data were processed

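RNA of eWAT from 12 mice, 3 in each of the ND, HFD, CLE and LU groups, was sequenced by the authors as paired reads of 100 bases. The submitters' processing notes name CASAVA 1.8.2, Bowtie2 2.2.3, TopHat2 2.0.12 and Cufflinks 2.2.1, and the methods name Cuffdiff, as well as DEGseq for calls on read counts. The genome build is not given in the sources used here. The deposited values are FPKM per transcript, for 152210 transcripts, 1 column per library. The table has 15 FPKM columns, and 3 that no label matches were left out. Other columns of the table mark the authors' own calls between groups and were not used either. The groups were taken from the labels, and the column headed MD4 was assigned to ND mouse 4 by inference, from its number, the letter R and a header that lists it beside the other ND libraries.

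Rows with an Ensembl mouse transcript, as such or as the reference of an assembled transcript (class codes = and j), were summed per gene through GENCODE M21, which gave 22947 genes. Of the known transcripts found there, 87.6% started and ended at the same bases there. Transcripts without such a reference, 65.8% to 92.9% of the column totals, were left out. Totals over genes were 435095 to 455040 FPKM.

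Genes were tested with limma 3.58.1 (R 4.3.3) on log2(FPKM + 1), and a gene needed 1 FPKM or more in 3 or more libraries, which left 12775. A single fit held the 12 libraries, with group as its one term and no covariate, and Benjamini-Hochberg adjustment over all genes tested in each comparison. Fold changes of low genes are understated on this scale. The count test of the study could not be run, as the deposited values are FPKM. Nothing in the labels ties the samples to more than separate mice, so p-values measure the spread between these mice. Tables and plots were made with Python 3.11.15, pandas 2.3.3, numpy 2.4.6 and matplotlib 3.10.9. The sequences are those of RefSeq promoters (GRCm38.p6) and GENCODE M21 transcripts.

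The receptor genes and the gene lists were chosen with earlier results of these data known. The lists cover ITAM signaling, inhibitory phosphatases and adaptors, other Fc receptors, other C-type lectins, other ITAM or ITIM receptors, and markers of macrophages, neutrophils, dendritic cells, B cells, NK cells, mast cells, adipocytes, epididymis and liver. From each list the 4 tested genes with the largest change between HFD and ND were named, with those called against the majority of their list. Some listed genes are not reported here. The alternatives were another pseudocount, other filters, 3 scalings, a fit of the compared groups alone, a trend, the letter R, the adjusted p alone, other sums of transcripts, leaving out each library, and the mouse number as a block.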

Additional observations from a re-analysis of the deposited data

How the results depend on the processing

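All calls of receptor genes kept their direction under the alternatives (765 values on the same side of the threshold, 17 past it no longer, 0 reversed), and the 17 lost calls belong to CLE or LU against ND. With 1 library left out at a time, the genes called in each comparison other than CLE against ND were called in all 12 fits. For CLE against ND, with 2 genes called, the count ranged from 1 to 6 in these fits. It was 4 with a pseudocount of 0.1, 5 with libraries scaled to equal totals, 0 in a fit of the 2 groups, 1 without the libraries with the letter R and 1 in a fit of ND, CLE and LU without a block, which was added after seeing the data. For LU against ND it was 4 in place of 7 without the libraries with the letter R. The filter on a mean of at least 5 FPKM left fewer receptor genes to test and gave 5 higher for HFD against ND, 4 lower for CLE and 4 lower for LU against HFD. The cause of the other changes was not tested. Of 598 values of genes that were not called, 550 stayed the same, 20 changed sign (*Clec4n* and *Clec4d*), 22 became called and 6 fell in none of these classes. For HFD against ND and for CLE or LU against HFD, the lists of signaling genes, phosphatases, other receptors and macrophage markers stayed within 1.5 times their counts with any 1 library left out.

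HFD mice share no number with another group, so the mouse number was used as a replicate block in a fit of ND, CLE and LU alone. With the replicate block, 0 receptor genes were called for CLE against ND, 3 for LU against ND and 0 for CLE against LU. The deviations of mice with the same number correlated between -0.10 and 0.19 over 5 pairs, so the numbers were not taken to pair the mice, and the lost calls do not show a weaker effect.

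Relative to *Adgre1*, *Cd68* and *Csf1r* alone, 0 genes were above and 7 below for HFD against ND (0.266% and 99.3% of all genes tested), 7 above and 0 below for CLE against HFD (99% and 0.117%), 6 above and 1 below for LU against HFD (98.7% and 0.196%), 0 above and 6 below for CLE against ND (0.11% and 91.1%), 0 above and 7 below for LU against ND (0.188% and 97.8%), and 1 above for CLE against LU (20.1%). With a pseudocount of 0.1 and 10 markers, 5 were above for HFD against ND (1.54% of all genes), 1 above for CLE against HFD (92.7%), 1 below for CLE against ND (79%) and 0 below for LU against ND (89%). The *Fcgr2b* share moved by less than the spread between mice with any 1 library left out, without the libraries with the letter R and with class j transcripts left out. It was not recomputed under the other alternatives, among them the transcript with the highest mean alone.

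Precision is limited by 3 mice per group and by the unknown depth. *Clec4e*, *Clec4n* and *Clec4d* in ND mice stood near or under 1 FPKM, where a fold change on the log2(FPKM + 1) scale is compressed. The estimates for single transcripts are less certain than the sums per gene.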
